A study of Mus musculus with 20 samples.

Results

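The effect of a skin melanoma on the hippocampus was examined in mice that all received immune checkpoint inhibitors (ICI). The comparison set the 5 libraries titled melanoma plus ICI against the 5 tumour-free libraries titled ICI, 10 of the 20 libraries of the series, chosen by their titles alone. All animals were wild-type male mice of 10 to 12 weeks, and both groups received intraperitoneal antibody against CTLA-4 (1 mg per dose, 3 doses per week) and antibody against PD-1 (200 µg per dose, 2 doses per week). The melanoma plus ICI mice had in addition been injected intradermally on both sides with D4M-3A.UV2 cells, 500000 per injection, and were given 1 week for engraftment before treatment. The labels state 3 weeks of antibody for these tumour-bearing mice and do not repeat the duration for the tumour-free mice, and brains were collected 72 hours after the last injection. The other 2 groups, control (no tumour) and melanoma (the same tumour cells), were given isotype antibody and held 5 mice each. They serve here for the tumour difference without checkpoint antibodies. Each library came from a single frozen hippocampus, and a replicate was a separate mouse.

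CTLA-4 and PD-1 are inhibitory receptors of T cells, and antibodies that block them release T cell responses against tumours. D4M-3A.UV2 is a mouse melanoma line made from D4M-3A cells by ultraviolet irradiation, which raises its mutational load and makes it more visible to T cells. It was placed in the skin, so no tumour tissue lay in the sampled organ by design. The hippocampus holds the granule neurons of the dentate gyrus, the pyramidal neurons of fields CA1 and CA3, glia and vessels. It adjoins choroid plexus and meninges, whose resident macrophages express antigen-presenting MHC class II genes, and its own microglia express few of them at rest.

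Libraries held between 21990624 and 25735149 counts in the genes, and 18427 genes were abundant enough to be tested. Values are given as CPM, counts out of 1000000, after library sizes were scaled by TMM. Mitochondrial genes took 3.08 to 3.50% of counts in the ICI libraries and 3.22 to 4.28% in the melanoma plus ICI libraries. Hippocampal neuron transcripts were abundant in both groups, with Camk2a, a kinase of the excitatory synapse, at a mean of 4665 CPM in the ICI libraries and 3344 in the melanoma plus ICI libraries. The antibody targets were close to absent, with 11 counts of Pdcd1, which encodes PD-1, summed over the ICI group and 12 over the melanoma plus ICI group. Ctla4 had 7 and 15 counts. Pigment cell transcripts were low in both groups: Pmel, a melanosome protein, had 72 and 71 counts, Mlana 3 and 6, the pigment enzyme gene Dct 27 and 65, and Tyrp1 13 and 33, of which 22 lay in melanoma plus ICI library 4.

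Markers of neighbouring tissue and of hippocampal fields had different means in the 2 groups, none past the adjusted test, and their values stand beside the results that follow. For each library, a list score averages log2 CPM over the tested genes of the list. The dentate gyrus score was 4.94, 5.37, 6.35, 6.0 and 4.16 in ICI libraries 1 to 5 and 4.43, 4.46, 3.32, 4.66 and 3.99 in melanoma plus ICI libraries 1 to 5. All 8 dentate gyrus markers had lower mean levels with the tumour, 6 of them at an unadjusted p below 0.05. ICI library 5 overlapped the tumour-bearing group, and melanoma plus ICI library 3 had the lowest score. The meninges score was 1.99 to 3.68 in the ICI libraries and 3.41 to 4.46 in the melanoma plus ICI libraries, and all 11 markers had higher means, 8 of them at an unadjusted p below 0.05. For example Mgp, a matrix protein of fibroblasts and vessel walls, ranged over 4.33 to 10.8 CPM in the ICI libraries and 12.1 to 17.6 CPM in the melanoma plus ICI libraries, without overlap. All 11 choroid plexus markers also had higher means, none at p below 0.05. Their score spread from 0.02 to 4.85 in the ICI libraries and from 0.97 to 6.52 in the melanoma plus ICI libraries, so this tissue varied more within groups than between them. All 11 striatal markers had higher means too, again none at p below 0.05, with melanoma plus ICI library 3 at a score of 5.33 against at most 3.73 in the rest of its group. Neocortical markers were highest in melanoma plus ICI libraries 1 and 3, at scores of 5.30 and 5.52, against 3.71, 3.63 and 3.92 in libraries 2, 4 and 5. Red blood cell transcripts, haemoglobin chains and the haem enzyme Alas2, had higher means for 5 of 5 genes (median 0.92), 1 of them at p below 0.05. Their score was -1.61, 1.26, -1.24, 1.48 and 0.92 in ICI libraries 1 to 5 and 2.55, 1.18, 1.22, 0.54 and 1.56 in melanoma plus ICI libraries 1 to 5, low in ICI libraries 1 and 3 and highest in tumour-bearing library 1. The part of blood in the myeloid and vascular values below was not tested. In bulk tissue, fewer cells of a type and less RNA per cell cannot be told apart. Gene length moved with the groups as well, since genes of 1 to 2 kb had a median log2 fold change of 0.10 and genes over 8 kb one of -0.07.

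**Figure D1:**
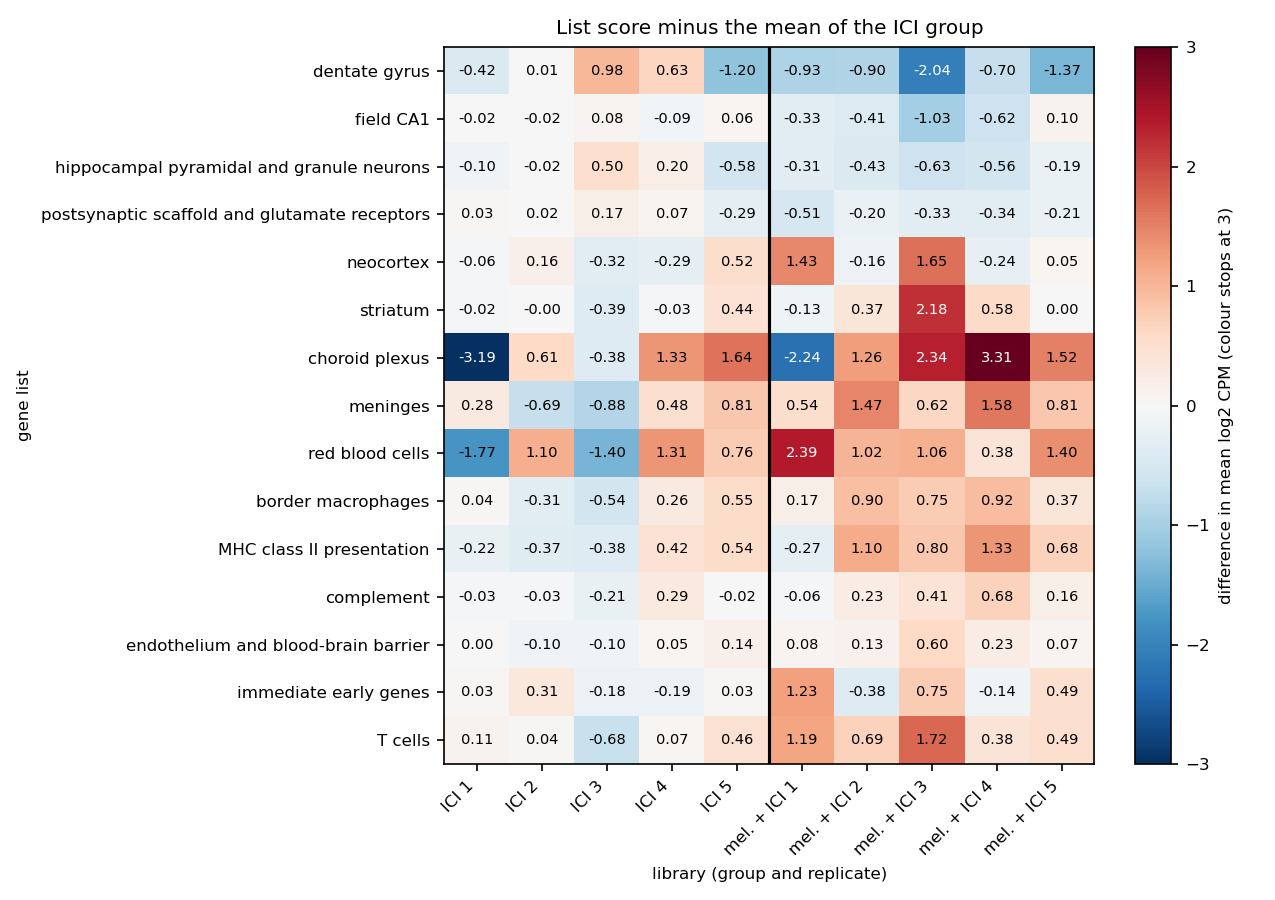
Each cell gives a list score (mean log2 CPM of the tested genes of a list) in 1 library minus the mean of the 5 ICI libraries, with ICI libraries at the left of the line and melanoma plus ICI libraries at the right. All 5 melanoma plus ICI libraries lie below the ICI mean for the dentate gyrus and postsynaptic lists and above it for meninges and border macrophages, and libraries 1 and 3 have the 2 highest scores for neocortex, immediate early genes and T cells.

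No gene passed the test between melanoma plus ICI and ICI at a Benjamini-Hochberg adjusted p of 0.05 (edgeR quasi-likelihood test over 18427 genes), and DESeq2, run as an alternative, called 9. At an unadjusted p below 0.05 there were 1590 genes, 8.63% of those tested, of which 759 (4.12%) had higher and 831 (4.51%) lower means in the tumour-bearing mice. Whatever the p, 55% of all genes had higher means. The 2 groups did not overlap for 267 genes (1.45%), 108 higher (0.586%) and 159 lower (0.863%). The words higher and lower below therefore describe group means, and the changes are log2 fold changes of melanoma plus ICI over ICI. SE is the size of the log2 fold change divided by the square root of its quasi-likelihood F statistic.

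Lyz2, the lysozyme of macrophages, microglia and neutrophils (chromosome 10, 117277334 to 117282274), had the smallest p-value. It was at 2.7, 2.91, 3.0, 5.07 and 4.89 CPM in ICI libraries 1 to 5 and at 7.31, 8.03, 6.5, 9.2 and 6.0 CPM in melanoma plus ICI libraries 1 to 5. Every tumour-bearing library lay above every tumour-free one. The log2 fold change was 0.99 (SE 0.18), with an adjusted p of 0.318 from edgeR and 0.00198 from DESeq2. Of its 50-base words, 15.4% also occur in Lyz1, which had only 9 and 7 counts over the groups. Lsr, the lipolysis-stimulated lipoprotein receptor that sits at tricellular junctions of the blood-brain barrier (chromosome 7, 30957770 to 30973464), came next. It was at 3.6, 3.66, 3.33, 4.49 and 4.04 CPM in ICI libraries 1 to 5 and at 5.46, 6.07, 5.88, 6.63 and 5.34 CPM in melanoma plus ICI libraries 1 to 5. Again the groups did not overlap, with a log2 fold change of 0.62 (SE 0.12) and an adjusted p of 0.318 from edgeR, 0.00946 from DESeq2. Genes on the opposite strand overlap Lsr and hold 156% of its counts, so its level is uncertain if strand was not used in counting.

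The other 10 of the 12 leading genes with higher means had adjusted p-values of 0.432 to 0.563 by edgeR. Vcam1 encodes the adhesion molecule by which inflamed endothelium captures leukocytes. It was at 21.1, 23.2, 17.7, 26.1 and 28.9 CPM in ICI libraries 1 to 5 and at 58.7, 34.7, 36.4, 43.8 and 27.9 CPM in melanoma plus ICI libraries 1 to 5. Only library 5 of the tumour-bearing group fell within the tumour-free range, and the log2 fold change was 0.78 (SE 0.17). Aspg, an asparaginase that is induced in reactive astrocytes, was at 1.84, 1.32, 3.14, 2.72 and 2.31 CPM in ICI libraries 1 to 5 and at 3.49, 4.4, 5.23, 3.91 and 3.78 CPM in melanoma plus ICI libraries 1 to 5. The groups were fully apart, with a log2 fold change of 0.88 (SE 0.20). Ctsh, a lysosomal cysteine protease of myeloid cells, ranged over 6.48 to 10.1 CPM against 10.1 to 13.3 CPM. Pdia6, which forms disulphide bonds in the endoplasmic reticulum, ranged over 106 to 115 against 112.4 to 151 CPM. Its tumour-bearing values lay at 141 or above except in library 3. Lipg, the endothelial lipase, ranged over 1.15 to 3.22 against 3.55 to 7.43 CPM, and Tspan11, a tetraspanin, over 0.524 to 0.858 against 1.1 to 3.21 CPM. Neither gene's groups overlapped. Itgb5, a subunit of a vitronectin-binding integrin, came to 45.9 ± 3.13 CPM in the ICI libraries and 56.3 ± 6.15 CPM in the melanoma plus ICI libraries (SD, n = 5 each). The remaining 3 were Mospd1 (0.56), Ginm1 (0.39) and St3gal6, a sialyltransferase (0.47). The counts of a gene on the opposite strand equal 189% of those of St3gal6. With the choroid plexus, meninges, striatum and neocortex scores as covariates, Lyz2 came to 0.62, Vcam1 to 0.49, Ctsh to 0.28 and Tspan11 to 1.00, and no other of the 12 moved by more than 1.5 times.

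The 12 leading genes with lower means included several neuronal genes. Nova2, a splicing factor of neurons, was at 93, 87.1, 85.8, 79.1 and 79.8 CPM in ICI libraries 1 to 5 and at 59.7, 76.5, 65.3, 70 and 69.2 CPM in melanoma plus ICI libraries 1 to 5. The groups did not overlap, although they were only -0.32 apart on the log2 scale (SE 0.07, adjusted p = 0.563 by edgeR). Coro1c, an actin-binding coronin, was at 100.5, 109.5, 112.4, 116 and 98.7 CPM in ICI libraries 1 to 5 and at 86.1, 91.1, 84.3, 90.8 and 84 CPM in melanoma plus ICI libraries 1 to 5. It showed the same separation at -0.30 (SE 0.08). Bcl11b, a transcription factor of dentate granule neurons, ranged over 112.4 to 226 against 75.8 to 124 CPM. Acan, the core protein of perineuronal nets, ranged over 3.77 to 11.1 against 3.45 to 4.45 CPM, with tumour-bearing values closely grouped. Chrna5, a nicotinic receptor subunit, ranged over 4.04 to 5.48 against 1.96 to 3.12 CPM, and Adarb2, an RNA-binding relative of RNA-editing enzymes, over 26.5 to 36.5 against 18.3 to 25.8 CPM. Both were free of overlap. Mafa, a transcription factor, had the widest change of the 12 at -1.58 (SE 0.43), from a level below 3 CPM in every library. The others were Egfem1 (-0.62), Ncbp1, which binds the messenger RNA cap (-0.21), 2010300C02Rik (-0.81), Gucy2e, a guanylate cyclase (-0.54), and 1700110C19Rik (-0.77). With the dentate gyrus and meninges scores entered together as covariates, 9 of the 12 log2 fold changes shrank by more than 1.5 times. Bcl11b came to -0.24, 2010300C02Rik to -0.15, Adarb2 to -0.23, Mafa to -0.85 and Coro1c to -0.16, while Nova2 stayed at -0.32.

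**Figure D2:**
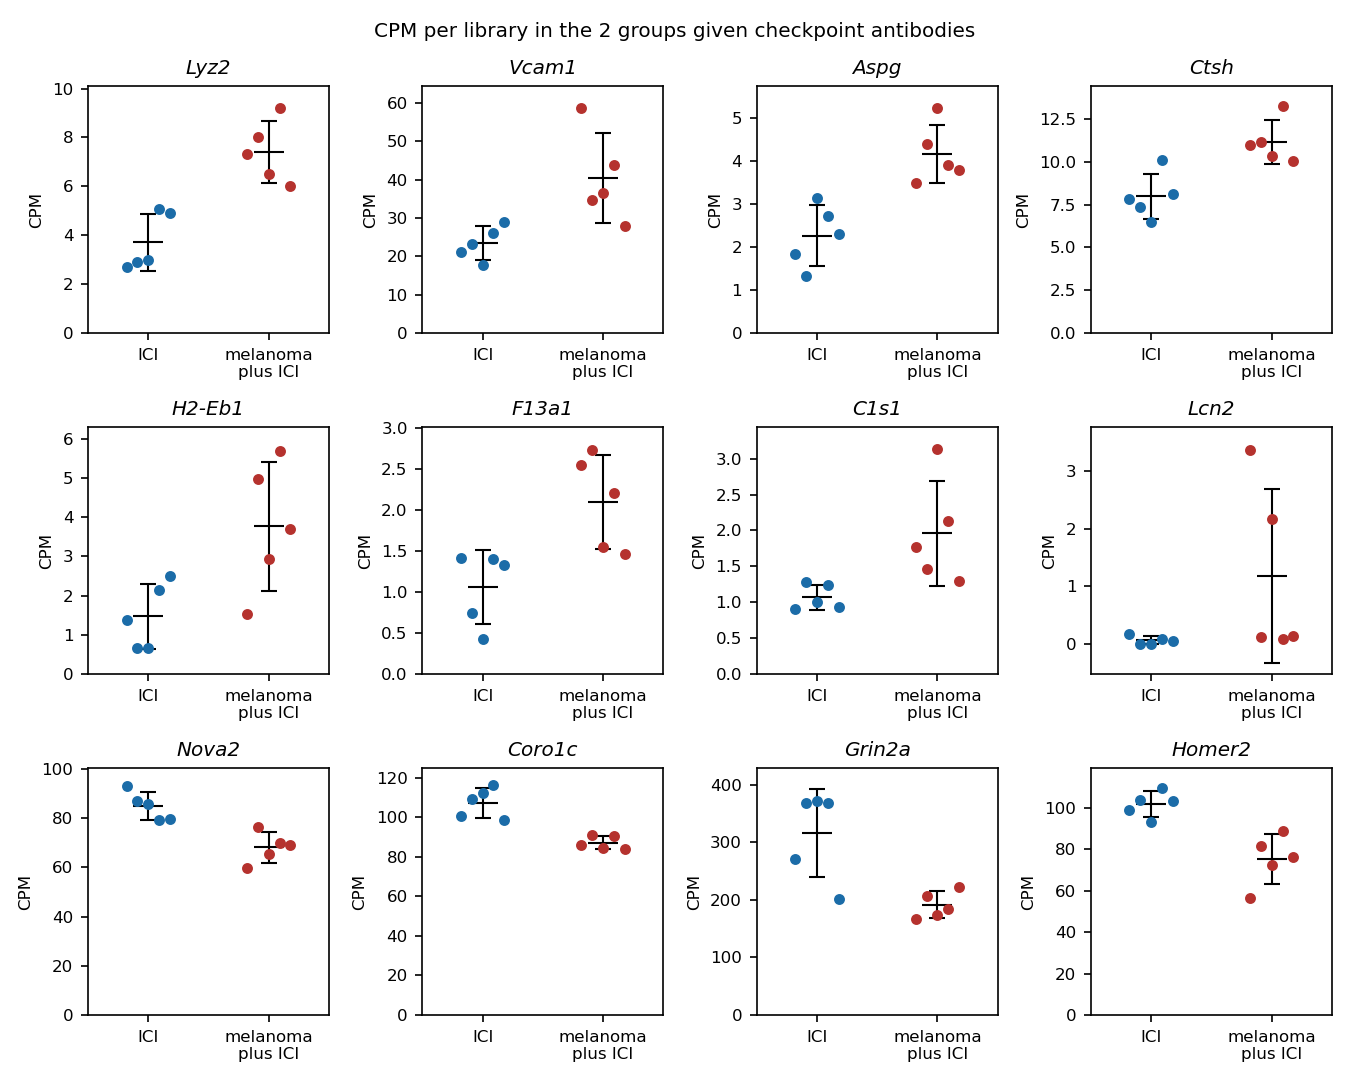
Points are CPM (y axis, linear) in the 5 ICI and 5 melanoma plus ICI libraries for 12 genes, with the mean and SD of each group in black. Lyz2, Aspg, F13a1 and C1s1 show no overlap upwards and Nova2, Coro1c and Homer2 none downwards, while the Lcn2 mean rests on 2 tumour-bearing libraries.

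MHC class II genes, which present extracellular antigen to CD4+ T cells, had the highest median log2 fold change of the immune lists, 1.25 over 7 tested genes against 0.02 over all genes. Of the 7, 5 had higher means at an unadjusted p below 0.05 and none passed the adjusted test. These genes are switched on together by the coactivator CIITA, which is recruited to promoters that carry an X box, bound by RFX, and a Y box, bound by NF-Y. Promoter stretches of the 120 bases before the start site are shown for 3 of the 5 members that had higher means, as examples of these boxes. They are RefSeq sequences of build GRCm38.p6 in the direction of the gene, with matches to an X box core of 11 letters, 1 of them any base, or to the Y box core TGATTGG in capitals. H2-Aa lies at chr17:34287824-34287943 (minus strand), H2-Eb1 at chr17:34305747-34305866 (plus strand) and H2-DMb1 at chr17:34153071-34153190 (plus strand).
H2-Aa: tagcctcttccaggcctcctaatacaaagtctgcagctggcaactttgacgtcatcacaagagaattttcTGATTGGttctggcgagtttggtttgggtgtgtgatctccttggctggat
H2-Eb1: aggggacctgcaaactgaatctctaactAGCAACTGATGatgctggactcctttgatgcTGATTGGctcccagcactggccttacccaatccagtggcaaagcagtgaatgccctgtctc
H2-DMb1: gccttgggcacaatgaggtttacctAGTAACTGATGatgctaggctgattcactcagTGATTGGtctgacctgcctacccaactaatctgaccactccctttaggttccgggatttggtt
H2-Eb1 and H2-DMb1 held both cores, 20 and 21 bases apart, and H2-Aa held the Y box core alone. In windows of 300 bases, searched on both strands, the Y box core occurred in 2568 of 32851 promoters (7.82%), the X box core in 52 (0.158%) and both in 7 (0.0213%). The cores do not overlap each other in these stretches. Neither occurred in the 2 promoter windows listed for H2-DMa. A match describes the sequence only.

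The beta chain gene H2-Eb1 was at 1.37, 0.662, 0.667, 2.14 and 2.49 CPM in ICI libraries 1 to 5 and at 1.52, 4.97, 2.94, 5.69 and 3.69 CPM in melanoma plus ICI libraries 1 to 5. Library 1 of the tumour-bearing group stood at the tumour-free level and the other 4 lay above all ICI libraries. The log2 fold change was 1.35 (SE 0.44), unadjusted p = 0.0062 and adjusted p = 0.563 by edgeR. H2-Aa, the alpha chain of the other classical class II molecule, was at 0.686, 0.75, 0.714, 1.69 and 1.87 CPM in ICI libraries 1 to 5 and at 0.862, 4.32, 2.36, 5.69 and 2.89 CPM in melanoma plus ICI libraries 1 to 5, with a log2 fold change of 1.49 (SE 0.57). Its partner H2-Ab1 had 1.25 (SE 0.48) and Cd74, the invariant chain that escorts class II molecules, 1.26 (SE 0.45). In each of these 3 genes too, tumour-bearing library 1 lay within the ICI range. H2-DMb1, a chain of the peptide-loading catalyst that was picked for its promoter after its values were seen, had 0.63 (SE 0.26). The other chain, H2-DMa, had -0.05 (SE 0.18) and reversed its sign with either set of tissue scores as covariates. Ciita, the coactivator itself, had -0.44 (SE 0.39) and was likewise looked up after the values were known. The MHC class II median was 0.46 with the dentate gyrus and meninges scores as covariates and 0.12 with the choroid plexus, meninges, striatum and neocortex scores, with 1 of the 7 genes at p below 0.05 in either fit.

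Border macrophages, the resident macrophages of meninges, vessels and choroid plexus, had higher means for 12 of 12 markers, with a median of 0.78 and 4 at an unadjusted p below 0.05. F13a1, a coagulation factor chain made by these cells, was at 1.42, 0.75, 0.429, 1.4 and 1.33 CPM in ICI libraries 1 to 5 and at 2.55, 2.73, 1.55, 2.21 and 1.47 CPM in melanoma plus ICI libraries 1 to 5. The groups did not overlap, by a small margin. Clec10a, a lectin receptor, was low, at 0.123 to 0.40 against 0.452 to 0.693 CPM, also without overlap. Pf4, a chemokine, had 1.01 (SE 0.43) and Lyve1, a hyaluronan receptor, 0.81 (SE 0.36). With the dentate gyrus and meninges scores as covariates the list median was 0.19, with 8 of 12 higher, and with the 4 scores of neighbouring tissue it turned to -0.13, with 5 of 12 higher. No marker was at p below 0.05 in either fit. Homeostatic microglial markers, by contrast in value, had a median of 0.05 over 14 genes, with 8 higher, 6 lower and none at p below 0.05. No test compared the lists.

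Among 17 reactive microglial genes, 12 had higher means and 3 reached p below 0.05 unadjusted. These 3 belong to the lysosome and late endosome: Cd63, a tetraspanin, had 0.49 (SE 0.16), and the proteases Ctsd and Ctsl had 0.32 (SE 0.12) and 0.27 (SE 0.10). With the 4 tissue scores Cd63 came to 0.29, Ctsd to 0.30 and Ctsl to 0.20, and with the dentate gyrus and meninges scores to 0.44, 0.42 and 0.26. The list median of 0.13 was 0.13 and 0.25 in these fits, with 3 and 2 genes at p below 0.05. Part of the sequence of Ctsd (32.4% of 50-base words) and of Cd63 (11%) is shared with other genes. Cd63 was 54.6, 62.6, 54.3, 72.7 and 77.2 CPM in ICI libraries 1 to 5 and 83.6, 71.7, 84.2, 130.4 and 82.4 CPM in the tumour-bearing ones, where library 4 stood above the rest.

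Complement genes had a median of 0.18 over 17 tested, with 14 higher, 4 of them at p below 0.05 and none lower at that level. The median stayed between 0.15 and 0.39 in all 21 alternatives, the tissue score fits included. C1s1, a protease of the initiating C1 complex, was at 0.901, 1.28, 1.0, 1.24 and 0.933 CPM in ICI libraries 1 to 5 and at 1.77, 1.47, 3.13, 2.13 and 1.29 CPM in melanoma plus ICI libraries 1 to 5. The groups did not overlap, and the log2 fold change was 0.87 (SE 0.26). The word sharing of C1s1 with other genes was 21.8%. Cd55 and Cd59a, membrane inhibitors of complement, had 0.73 (SE 0.28) and 0.97 (SE 0.43). The C1q chains C1qa, C1qb and C1qc, made by microglia, had 0.14, 0.18 and 0.09, and C3 had -0.29. With the 4 tissue scores, Cd59a came to 0.59 and C1s1 to 0.41.

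MHC class I presentation genes, which show intracellular peptides to CD8+ T cells, had a median of 0.20 over 14 genes, with 12 higher and 3 at p below 0.05. The nonclassical class I gene H2-T23 was at 6.52, 6.22, 4.95, 7.7 and 9.15 CPM in ICI libraries 1 to 5 and at 20.8, 8.64, 20.6, 11.2 and 9.21 CPM in melanoma plus ICI libraries 1 to 5. Libraries 1 and 3 were near 21 CPM and the other tumour-bearing libraries between 8 and 12 CPM. Its log2 fold change of 1.03 (SE 0.27) came to 0.49 without those 2 libraries, and 13.6% of its words are shared with other genes. Tapbp, which loads peptide onto class I molecules, had 0.23 (SE 0.09) and the classical heavy chain H2-K1 0.37 (SE 0.15). Of 25 type I interferon response genes, 18 had higher means, with a median of 0.10. Of these genes, Ifitm3, an antiviral membrane protein, reached p below 0.05 with a higher mean (0.45 (SE 0.16)) and Ifit3b with a lower one (-0.43 (SE 0.16)). The interferon median turned to -0.21 with the 4 tissue scores and to -0.10 with the dentate gyrus and meninges scores, and Ifitm3 came to 0.17 and 0.22 in these fits. The MHC class I median came to 0.03 with the 4 tissue scores, with Tapbp at 0.01 and H2-K1 at 0.09. Fc receptors, which bind antibody and are therefore of interest in mice given antibodies, had higher means for 5 of 5 genes, led by Fcgr3 at 0.33 (SE 0.12). The Fc receptor median of 0.28 came to 0.02 with the 4 tissue scores and to 0.07 with the dentate gyrus and meninges scores, with 3 of 5 higher in each fit.

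Transcripts of T and B cells stayed sparse. Cd3e, part of the T cell receptor complex, had 9 counts over the ICI group and 10 over the melanoma plus ICI group, and Cd8a had 8 and 11. Both were too low to be tested, as were 12 of the 17 T cell genes. Trbc2, the constant region of the T cell receptor beta chain, was at 0.0858, 0.177, 0.191, 0.206 and 0.667 CPM in ICI libraries 1 to 5 and at 8.91, 0.285, 10.4, 0.158 and 0.40 CPM in melanoma plus ICI libraries 1 to 5. The high mean came from libraries 1 and 3, which also had the highest neocortex scores. Cd4 was 0.386, 0.265, 0.0476, 0.206 and 0.489 CPM in the ICI libraries and 0.452, 0.57, 8.17, 0.908 and 0.40 CPM in the melanoma plus ICI libraries, high in library 3 alone, which also had the highest striatal score. Without tumour-bearing libraries 1 and 3, the log2 fold change of Trbc2 came to 0.08 from 3.91 and that of Cd4 to 1.2 from 2.89. Trbc2 shares 44% of its 50-base words with other genes. Cd79a, a B cell receptor component, was at 0.191 to 0.40 against 0.355 to 0.57 CPM. The neutrophil genes S100a8 and S100a9 had 12 and 14 counts in the ICI group and 30 and 33 in the melanoma plus ICI group, of which library 1 held 15 and 17. Ly6g, a defining neutrophil marker, had 2 and 1 counts. Tgfb1, an immunoregulatory cytokine, was the cytokine gene at p below 0.05, at 4.46 ± 0.378 and 5.34 ± 0.344 CPM (SD, n = 5 each), and its groups did not overlap. Il1b, Tnf and Il6 were among the 12 of 21 cytokine genes too low to be tested.

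Reactive astrocyte genes differed in both directions. Of 12 tested genes shared by forms of astrocyte reactivity, 9 had higher means, with a median of 0.36, and 4 reached p below 0.05. With the 4 tissue scores the median was 0.17, with 2 genes at p below 0.05. Lcn2, a secreted iron-scavenging protein that astrocytes and endothelium release in inflammation, had 4, 0, 0, 2 and 1 counts in ICI libraries 1 to 5 and 82, 3, 56, 2 and 3 in melanoma plus ICI libraries 1 to 5. Libraries 1 and 3 alone carried it. Its log2 fold change was 4.15 (SE 1.17) with all libraries and 0.81 without those 2. Aspg, given above, was higher in all 5 tumour-bearing libraries. Cp, the ferroxidase ceruloplasmin, had 0.86 (SE 0.27) and came to 0.20 with the 4 tissue scores. A gene on the opposite strand holds 127% of the counts of Cp. Hspb1, a small heat shock protein, had 0.65 (SE 0.21) and shares 48.8% of its words with a pseudogene. The 2 most used reactivity markers pointed the other way without reaching p below 0.05. Gfap, the astrocytic filament protein, ranged over 252 to 435 against 190.3 to 345 CPM (log2 fold change -0.21 (SE 0.16)). Serpina3n, a protease inhibitor, ranged over 17.1 to 60.6 against 10.4 to 35.8 CPM (log2 fold change -0.59 (SE 0.34)). Both changed sign in the fit with dentate gyrus and meninges scores, at 0.02 and 0.31.

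The genes labelled A1 and A2, 2 reactivity patterns described in mice, were mixed. H2-T23, the matrix protein Fbln5 (0.92) and the granule proteoglycan Srgn (0.53) were the A1 genes higher at p below 0.05, and Fkbp5, a stress-responsive chaperone (-0.46), was the lower one. Tm4sf1 (0.54) and the endotoxin coreceptor Cd14 (0.46) were the higher A2 genes and Cd109 the lower one (-1.10). Cd109 turned to 0.33 with the dentate gyrus and meninges scores. The A1 median of 0.16 turned to -0.06 with the 4 tissue scores, with Fbln5 at 0.16 and Srgn at 0.15, and to -0.01 with the dentate gyrus and meninges scores, with Fbln5 at 0.31 and Srgn at 0.27. Without tumour-bearing libraries 1 and 3, Cd14 came to 0.20. Homeostatic astrocyte genes had a median of 0.06 over 14, with Aldh1l1, a folate enzyme, alone at p below 0.05 (0.24 (SE 0.10)). Aldh1l1 turned to -0.0017 with the 4 tissue scores and came to 0.10 both with the dentate gyrus and meninges scores and without tumour-bearing libraries 1 and 3. The list median turned to -0.05 with the 4 tissue scores.

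Acute phase and NF-kB target genes had a median of 0.37, with 10 higher and 7 lower, and 4 reached p below 0.05, all higher: Lcn2, Vcam1, Icam1 and Ch25h. The list median came to 0.10 without tumour-bearing libraries 1 and 3, with 1 gene at p below 0.05, to 0.05 with limma voom and to -0.01 in the fit of the 10 libraries alone, where 13 of the genes were tested. Icam1, the second endothelial adhesion molecule for leukocytes, was at 2.27, 1.5, 1.52, 2.27 and 2.93 CPM in ICI libraries 1 to 5 and at 19.6, 2.81, 2.05, 3.4 and 2.54 CPM in melanoma plus ICI libraries 1 to 5. Library 1 alone stood apart. Ch25h, an enzyme that makes an antiviral oxysterol, was at 0.30, 0.177, 0.0476, 0.0824 and 0.444 CPM in ICI libraries 1 to 5 and at 2.22, 0.489, 1.08, 0.316 and 0.267 CPM in melanoma plus ICI libraries 1 to 5, highest in libraries 1 and 3. Without those libraries Icam1 came to 0.47 and Ch25h to 0.75, from 1.53 and 2.03, whereas Vcam1 came to 0.60. Both Icam1 and Ch25h are overlapped by opposite-strand genes with more counts than their own (135% and 173%).

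Endothelial and blood-brain barrier genes had higher means for 18 of 20, a median of 0.22, and 6 at p below 0.05, none lower at that level. Pecam1, the adhesion molecule of all endothelium, was at 16.7, 14.5, 13.6, 17 and 17.6 CPM in ICI libraries 1 to 5 and at 19.5, 21, 24, 20.9 and 17.3 CPM in melanoma plus ICI libraries 1 to 5. Its log2 fold change was 0.37 (SE 0.11), with the ranges overlapping. Cldn5, the main tight junction claudin of brain endothelium, was at 23.2, 18.9, 24.1, 23.5 and 27.5 CPM in ICI libraries 1 to 5 and at 41.3, 35.2, 22.8, 33.4 and 35.7 CPM in melanoma plus ICI libraries 1 to 5. Library 3 stayed at the tumour-free level, the other 4 lay above it, and the log2 fold change was 0.53 (SE 0.18). Emcn, a sialomucin of capillaries and veins, had 0.48 (SE 0.19). Mfsd2a, the lipid transporter that restrains transcytosis, had 0.06 (SE 0.12) and took the opposite sign in 4 alternatives. The list score was highest in library 3, at 4.89 against at most 4.51 in the rest of its group. Without libraries 1 and 3 the list median was 0.09, with 13 of 20 higher, and with limma voom 0.14, with 14 of 20 higher. With the dentate gyrus and meninges scores it was 0.13, with 14 of 20 higher. In both covariate fits 2 genes were at p below 0.05. With the 4 tissue scores the list median was -0.02, with Pecam1 at 0.11 and Emcn at 0.29, while Cldn5 stayed at 0.52 and Lsr at 0.47.

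Genes of the receiving side of excitatory synapses were mostly lower. Of 24 scaffold and glutamate receptor genes, 22 had lower means and 13 of them reached an unadjusted p below 0.05, against 4.51% of all genes. None was higher at that level and none passed the adjusted test. The median was -0.29. The list score was 8.81, 8.80, 8.95, 8.85 and 8.49 in ICI libraries 1 to 5 and 8.27, 8.58, 8.45, 8.44 and 8.57 in melanoma plus ICI libraries 1 to 5. ICI library 5, which was also the ICI library lowest in dentate gyrus markers, was the one tumour-free library within the tumour-bearing range. Grin2a, an NMDA receptor subunit, was at 271, 369, 372, 369 and 202 CPM in ICI libraries 1 to 5 and at 167, 208, 174, 184 and 223 CPM in melanoma plus ICI libraries 1 to 5. Apart from ICI library 5 its groups were separate, and the log2 fold change was -0.73 (SE 0.24). Homer2, which links metabotropic glutamate receptors to calcium stores, was at 98.8, 103.9, 93.3, 109.8 and 103.5 CPM in ICI libraries 1 to 5 and at 56.5, 81.4, 72.5, 89 and 76.4 CPM in melanoma plus ICI libraries 1 to 5. It was the member whose groups did not overlap, at -0.44 (SE 0.15). The kinase subunits Camk2b and Camk2a had -0.62 (SE 0.21) and -0.48 (SE 0.20). The scaffolds Dlg3 and Dlg4 (PSD-95) had -0.40 (SE 0.13) and -0.24 (SE 0.09). With the dentate gyrus and meninges scores as covariates the list median was -0.09, Grin2a -0.07 and Camk2b -0.0013 in place of -0.73 and -0.62, while Homer2 stayed at -0.34. With the 4 tissue scores the median was -0.14. In both covariate fits 18 of 24 genes were lower and 2 reached p below 0.05. Without tumour-bearing libraries 1 and 3, 23 were lower and 4 genes reached p below 0.05, with a median of -0.27.

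Hippocampal neuron markers ran alongside. All 6 markers of pyramidal and granule neurons had lower means, 3 of them at p below 0.05, but 3 and 2 of 6 were lower with the 4 tissue scores and with the dentate gyrus and meninges scores, none at p below 0.05. Among them was Neurod2, a neuronal transcription factor (-0.68 (SE 0.24)), which turned to 0.04 with the dentate gyrus and meninges scores. Lct, a marker of granule cells, ranged over 9.96 to 121 against 2.01 to 14.5 CPM. Of 5 CA1 markers, 4 had lower means, 1 of them at p below 0.05, with a median of -0.60, which came to -0.12 with the 4 tissue scores and to -0.18 without tumour-bearing libraries 1 and 3. Wfs1, a CA1 marker of the endoplasmic reticulum, had -0.65 (SE 0.30) and stayed at -0.64 in both covariate fits, but came to -0.30 without tumour-bearing libraries 1 and 3 and to -0.33 with limma voom. Of 5 CA3 markers, 4 had lower means, 1 of them at p below 0.05, and the median was -0.25. That median turned to 0.27 with the 4 tissue scores and to 0.37 with the dentate gyrus and meninges scores. Coch was the CA3 marker with a higher mean, at 1.49 (SE 0.43), or at 0.51 with the 4 tissue scores. Presynaptic release genes had a median of -0.05 with 7 higher, 9 lower and none at p below 0.05, and the sign of that median changed in 3 alternatives. Unc13a, which primes vesicles, had -0.40 (SE 0.20) and Stx1a, a fusion protein, 0.55 (SE 0.28). Stx1a came to 0.06 without tumour-bearing libraries 1 and 3 and to 0.17 with the 4 tissue scores.

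Immediate early genes, induced within minutes of neuronal firing, had higher means for 18 of 21, a median of 0.47, and 7 at p below 0.05. Fos was at 13.3, 19.6, 8.05, 9.02 and 17.4 CPM in ICI libraries 1 to 5 and at 79.1, 8.23, 47.7, 13.8 and 28.5 CPM in melanoma plus ICI libraries 1 to 5. Libraries 1 and 3 were the highest and libraries 2 and 4 lay within the tumour-free range. Egr2 (1.80 (SE 0.60)), Fosb (0.92 (SE 0.31)) and the phosphatase gene Dusp1 (0.98 (SE 0.37)) had their 2 highest values in the same 2 libraries. Without libraries 1 and 3 the list median was 0.02 and with limma voom 0.06, in either case with no gene at p below 0.05. Without the 2 libraries, the log2 fold changes were smaller too, with Fos at 0.32 and Egr2 at 0.28. The cell cycle inhibitor Cdkn1a, a glucocorticoid response gene, followed the same libraries, 24.2, 6.48, 20, 7.74 and 8.27 CPM in the tumour-bearing group against 5.58 to 7.51 in the other.

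Metabolic and myelin lists shifted little per gene. Nuclear-encoded respiratory chain genes had higher means for 29 of 30, with a median of 0.13, mitochondrially encoded genes for 12 of 13, with a median of 0.22, and ribosomal protein genes for 29 of 31, with a median of 0.11. None of these genes reached p below 0.05. Library 1 of the tumour-bearing group had the highest score in all 3 lists, at 7.32, 7.36 and 7.56. Without it the ribosomal median was -0.02. The respiratory chain median came to 0.04 without tumour-bearing libraries 1 and 3, with 23 of 30 higher, and to 0.01 with a surrogate variable, with 18 of 30 higher. The mitochondrially encoded median came to 0.12 and 0.07 in these 2 fits. Myelin genes had higher means for 16 of 17 (median 0.15), none at p below 0.05. That median rested on library 3, since it was -0.01 without it, -0.11 without libraries 1 and 3, with 3 of 17 higher, and -0.07 with limma voom, with 4 of 17 higher. It was -0.05 with the 4 tissue scores and 0.42 with the dentate gyrus and meninges scores. Cholesterol synthesis genes had higher means for 13 of 15 (median 0.19), with Insig1, Cyp51 and Msmo1 at p below 0.05. Without libraries 1 and 3 that median was 0.12, and with the dentate gyrus and meninges scores 0.08, in either case with none at p below 0.05. With the 4 tissue scores it was 0.09. Msmo1, a sterol demethylase, was 101.5, 68, 59.6, 57.9 and 67.7 CPM in the tumour-bearing libraries, led by library 1, against 44.5 to 59 CPM. Among 13 glucocorticoid response genes, 7 had higher and 6 lower means, with a median of 0.01. Fkbp5 and the mineralocorticoid receptor Nr3c2 had lower means at p below 0.05 (-0.46 and -0.72) and Cdkn1a a higher one (1.11). Fkbp5 and Nr3c2 came to -0.05 and -0.04 with the dentate gyrus and meninges scores. Without tumour-bearing libraries 1 and 3 the glucocorticoid list had 11 of 13 lower, a median of -0.32 and 4 at p below 0.05, while Cdkn1a came to 0.28. With limma voom the median was -0.20. The circadian clock list had a median of -0.06, with Bhlhe41, a clock repressor, at p below 0.05 (-0.28 (SE 0.12)). The clock median was -0.25 without tumour-bearing libraries 1 and 3, with 13 of 15 lower and 7 at p below 0.05, and -0.23 with the 4 tissue scores, with 14 of 15 lower and 6 at p below 0.05. With the gene length trend removed it was 0.01.

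Whether the tumour difference depended on the checkpoint antibodies was asked by setting it against melanoma minus control, the same difference under isotype antibody, in which no library is shared. No gene passed the adjusted test in that contrast, where 941 genes (5.11%) had an unadjusted p below 0.05. The 2 sets of log2 fold changes correlated weakly and negatively over 18427 genes (Pearson r = -0.160, Spearman rho = -0.277, across genes, which are not independent replicates). Of the 1590 genes at p below 0.05 in ICI-treated mice, 541 (34.0%) had the same sign under isotype antibody, against 36.2% of all genes. Of those 1590, 131 also had p below 0.05 under isotype antibody, and 34 of them shared the sign.

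**Figure D3:**
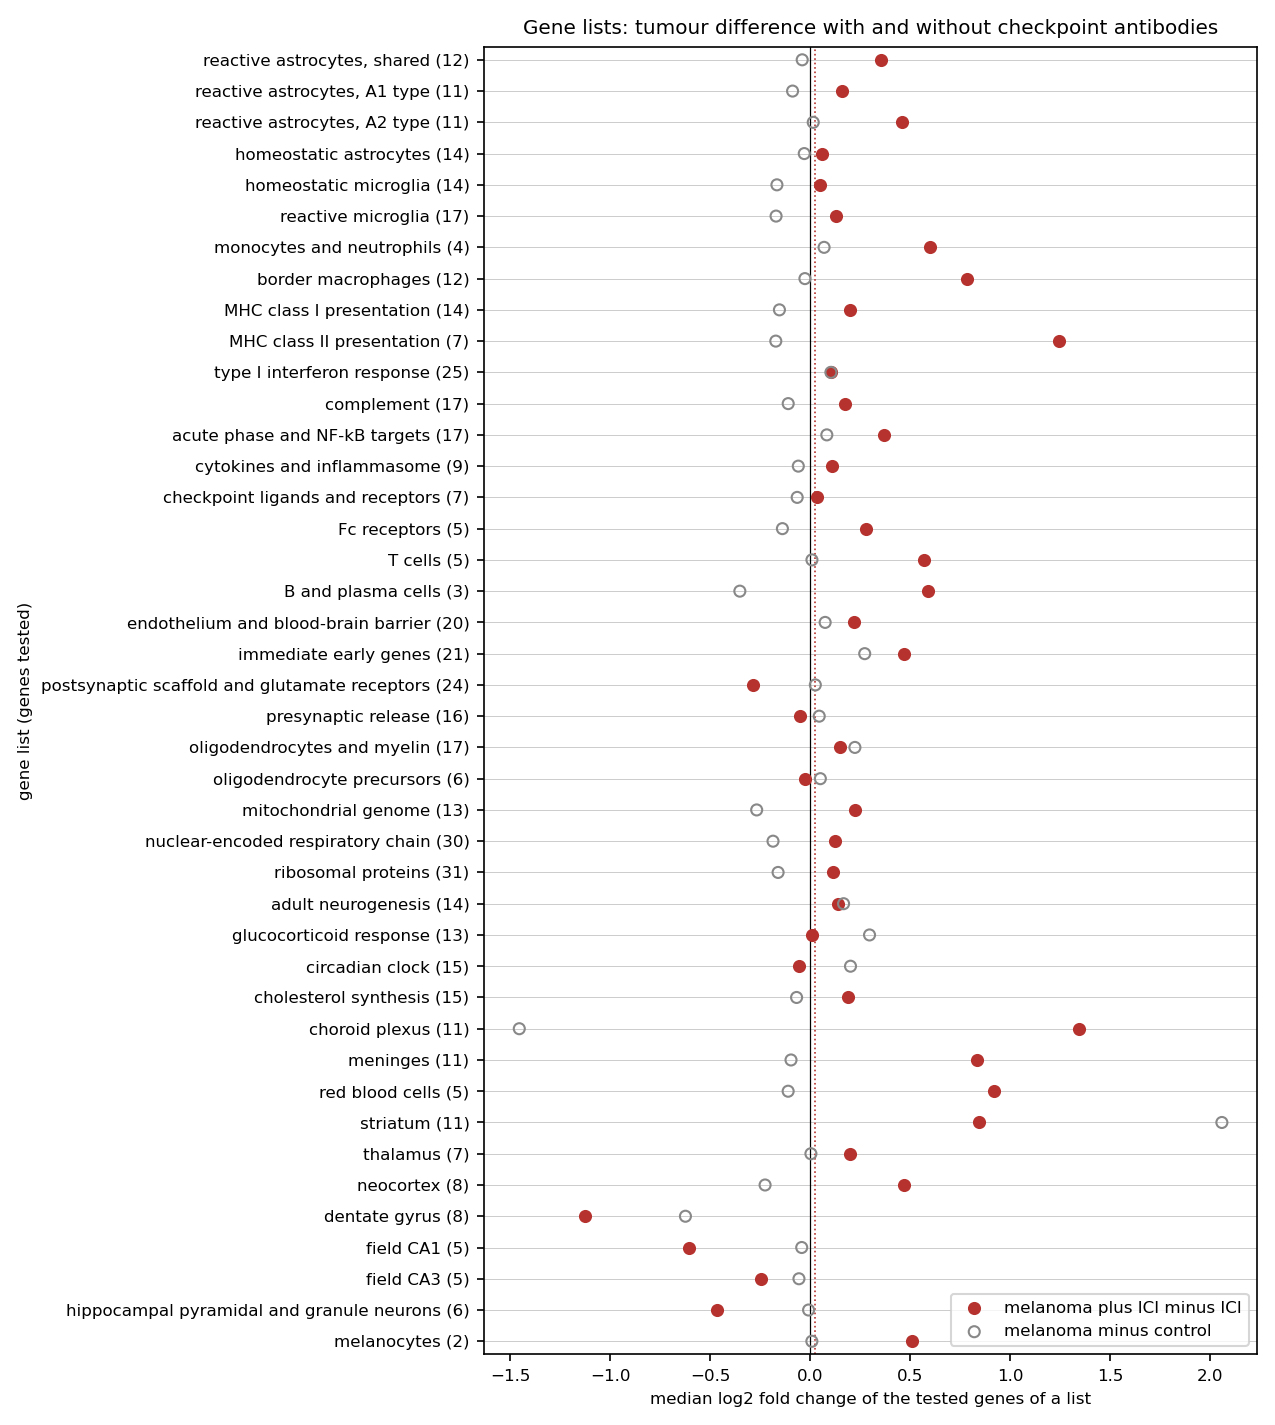
Each row is a gene list with its number of tested genes, and the x axis is the median log2 fold change of the tumour difference, filled for ICI-treated and open for isotype-treated mice. The dotted line marks the median of all genes in the ICI-treated comparison (0.02). MHC class II (1.25 and -0.17), border macrophages (0.78 and -0.03) and the postsynaptic list (-0.29 and 0.03) lie apart in the 2 settings, while the striatal list is higher under isotype antibody (0.85 and 2.06).

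The difference between the 2 tumour effects was tested as an interaction, (melanoma plus ICI minus ICI) minus (melanoma minus control). No gene passed the adjusted test with edgeR, and 1892 genes (10.3%) had an unadjusted p below 0.05, 1103 higher (5.99%) and 789 lower (4.28%). DESeq2 called 47 and limma voom with quality weights 19. Lsr was nearest, at 1.02 (SE 0.16) with an adjusted p of 0.0912 by edgeR. It was 5.94 ± 0.84 CPM in control mice and 4.51 ± 0.181 CPM in melanoma mice, both under isotype antibody, and 3.83 ± 0.449 and 5.88 ± 0.518 CPM in the ICI mice without and with the tumour (SD, n = 5 each). The control and melanoma plus ICI groups were the higher pair. Over 20 alternatives the adjusted p of Lsr lay between 0.000121 and 0.522, below 0.05 in 6.

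The other 5 leading interaction genes also had their higher means in the control and melanoma plus ICI groups, with an adjusted p of 0.253 each by edgeR. That adjusted p was below 0.05 in 5 of 20 alternatives for Cldn5 and in 3 for each of the others, and reached 0.522. Bsg, basigin, a glycoprotein of brain endothelium that carries lactate transporters to the membrane, was 474 ± 58.3 CPM in control mice and 350.1 ± 51.9 CPM in melanoma mice, both under isotype antibody, and 345 ± 28.5 and 447 ± 47.7 CPM in the ICI mice without and with the tumour. Cldn5 was 37.5, 25.1, 29.4, 59.1 and 33.3 CPM in control libraries 1 to 5 and 22.8, 22.8, 21, 21.2 and 19.9 CPM in melanoma libraries 1 to 5, so that it was lower with the tumour under isotype antibody (-0.78 (SE 0.18)) and higher under ICI (0.53 (SE 0.18)), with an interaction of 1.30 (SE 0.26). Every melanoma library lay below every control library, which in that contrast held, in either direction, for 1.04% of genes. Control library 4, highest in Cldn5, also had the highest mitochondrial share of its group, 5.10% against at most 3.62%. Over 20 alternatives the Cldn5 interaction lay between 0.988, with a surrogate variable, and 1.42. Fgfrl1, a decoy-like receptor for fibroblast growth factors, had -0.47 (SE 0.09) under isotype antibody and 0.18 (SE 0.09) under ICI. Itgb5 had -0.20 (SE 0.07) and 0.30 (SE 0.07). Lyz2 had -0.26 (SE 0.18) and 0.99 (SE 0.18), with 6.74, 6.85, 5.79, 6.18 and 6.32 CPM in control and 4.37, 4.65, 4.85, 5.64 and 7.03 CPM in melanoma libraries. With the 4 tissue scores as covariates the interactions came to 0.73 for Lyz2 from 1.26, 0.76 for Lsr and 0.64 for Bsg. Cldn5 came to 1.18, Fgfrl1 to 0.445 from 0.65 and Itgb5 to 0.37 from 0.50. Each then had an adjusted p of 0.522 by edgeR. The choroid plexus and meninges lists had interaction medians of 2.84 and 1.13, with all 11 genes of each higher. Of these, 4 and 6 were at an unadjusted p below 0.05, against 5.99% of all genes.

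**Figure D4:**
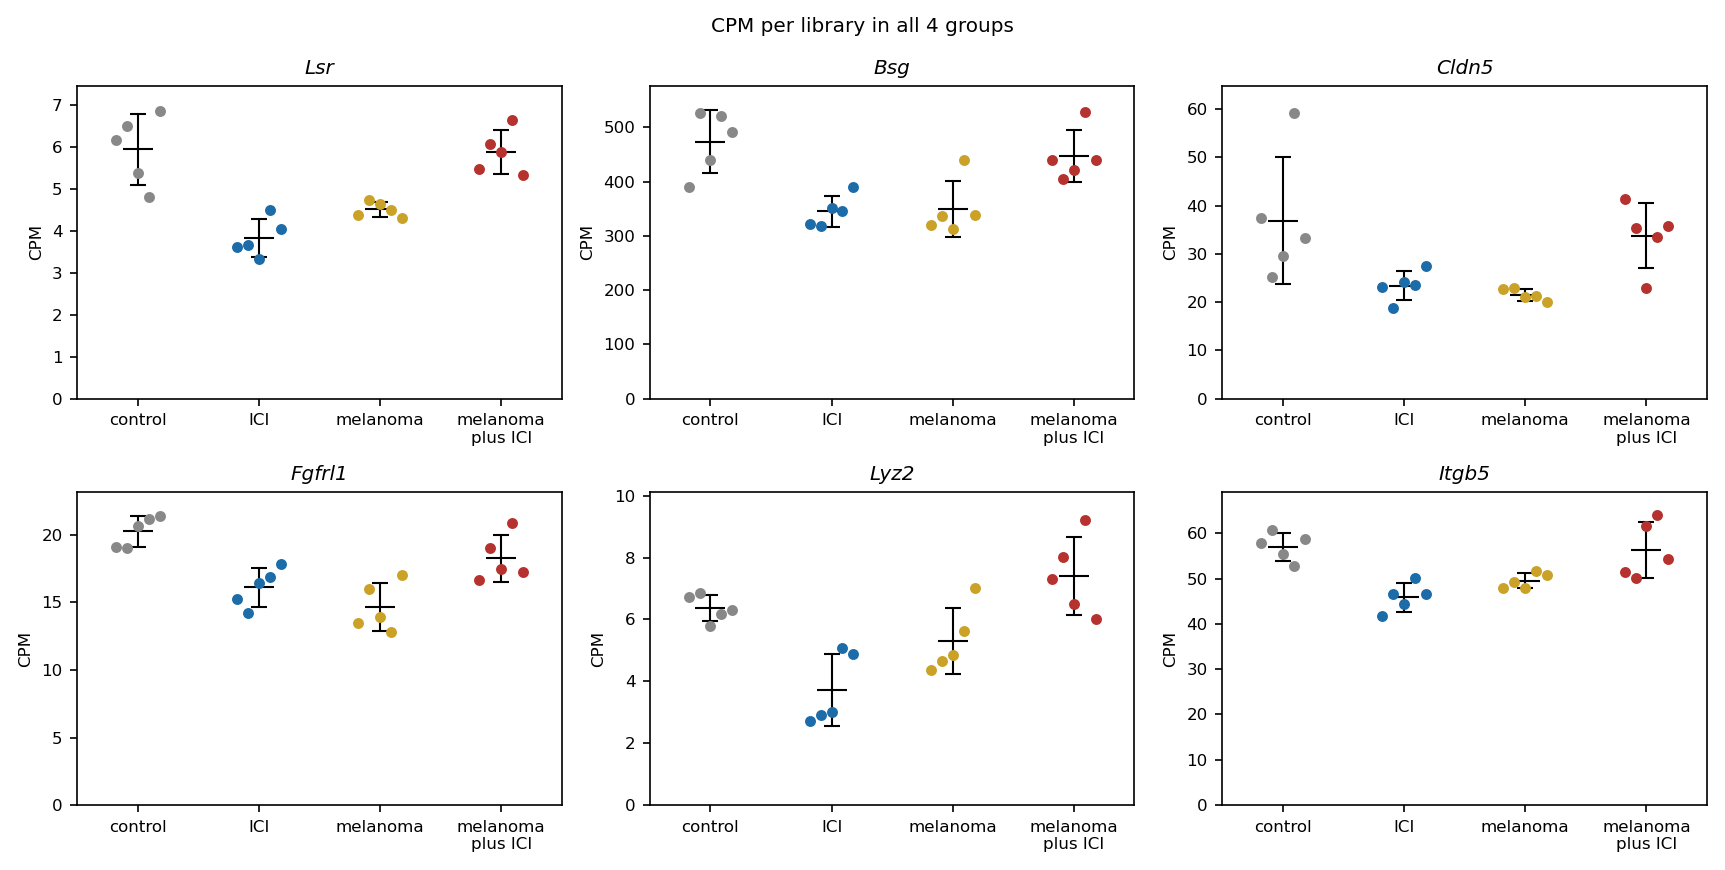
Points are CPM (y axis, linear from 0) in the 5 libraries of each of the 4 groups for the 6 genes with the smallest interaction p-values, with group mean and SD in black. In all 6, the control and melanoma plus ICI means are above the ICI and melanoma means.

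The tumour-free ICI level itself can be set beside control. ICI minus control uses the same ICI libraries as the main comparison, so its values are given side by side only. Lyz2 had -0.78 (SE 0.18) in ICI minus control, Lsr -0.63 (SE 0.12), Vcam1 -0.43 (SE 0.17) and Aspg -0.70 (SE 0.20). The mean of Lyz2 was 6.38 ± 0.431 CPM in control and 7.41 ± 1.26 in melanoma plus ICI. Aspg was 3.68 ± 0.526 CPM in control mice and 2.96 ± 0.616 CPM in melanoma mice, both under isotype antibody, and 2.27 ± 0.714 and 4.16 ± 0.68 CPM in the ICI mice without and with the tumour. The MHC class II list had medians of -0.73 in ICI minus control, -0.17 in melanoma minus control and 1.25 in the main comparison, and the postsynaptic list had 0.18, 0.03 and -0.29. Choroid plexus markers had -1.33, -1.45 and 1.35, and meningeal markers -0.50, -0.09 and 0.84. The part of these neighbouring tissues in the immune and vascular values was not tested beyond the covariate fits given above.

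Some differences had the same sign in both antibody settings. Lcn2 had 2.82 (SE 0.99) under isotype antibody, with 21 counts over the control group and 154 over the melanoma group. It was at 2.52, 0.213, 0.607, 2.88 and 0.304 CPM in melanoma libraries 1 to 5, so that libraries 1 and 4 held most of these counts. Cd4 had 3.94 (SE 1.01), and striatal markers were higher as well, 10 of 11 at p below 0.05 in melanoma minus control, where 2.7% of all genes were higher at that level. Fosb had 0.87 (SE 0.31) and 0.92 (SE 0.31), and its interaction was 0.06 (SE 0.43). Mfsd2a differed between the settings in the other direction from Cldn5: it had 0.67 (SE 0.12) under isotype antibody and 0.06 (SE 0.12) under ICI, an interaction of -0.61 (SE 0.17) with an adjusted p of 0.372 by edgeR.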

How the data were processed

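Per the labels, RNA of single frozen hippocampi was isolated by an RNeasy Plus Universal Mini kit and passed to Azenta. The deposited tables hold raw counts per gene, 1 library each, for 49671 genes in the layout that featureCounts writes, per the file headers. STAR 2.5.2b and DESeq2 1.16.1 are named in the submitters' processing notes without a role. The counting program, the use of strand, the genome build and the annotation release are not given in the sources used here, so reads of overlapping genes on opposite strands, and of near-identical copies, may not be separable. Symbols came from GENCODE M21 (GRCm38), which holds 49412 of the identifiers, 45214 with the same start and end. Coordinates are those of the deposited tables.

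Groups came from the titles. Counts were fitted with edgeR 4.0.16 in R 4.3.3 (filterByExpr with a minimum count of 10 and total of 15, TMM factors of 0.955 to 1.04, robust quasi-likelihood, 1 mean per group over all 20 libraries, 16 residual degrees of freedom), with Benjamini-Hochberg adjustment over 18427 genes and a threshold of 0.05. All tests are two-sided. List scores used log2 CPM with a prior count of 2. Alternatives of method were DESeq2 1.42.0, its size factors in edgeR, voom in limma 3.58.1 with quality weights, and no filter. Others were only the 10 libraries, a surrogate variable (sva 3.50.0), a block for the replicate number, tissue scores as covariates and removal of the length trend. Each of the 10 libraries of the 2 groups given ICI was also left out in turn. No control or melanoma library was left out singly. The dentate gyrus and meninges covariates, the joint removal of melanoma plus ICI libraries 1 and 3, and the block in the fit of 10 libraries were chosen after seeing the data. The scripts were tested on simulated data. Within a group, pairs of the 10 libraries differed by a chi-square of 11.5 to 74.9 per gene, where counting error alone gives 1, so none was a repeat. The 42 lists and the comparison were chosen with earlier results of these data known, so lists are described by counts and medians and not tested.

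Genes named are the 12 smallest p-values in each direction among genes with a symbol that averaged 1 CPM or more, the leading and most abundant members of each list (up to 4 for immune, glial, vascular and synaptic lists), genes that earlier results pointed to, the antibody targets and the 6 smallest interaction p-values. List members named outside this rule (H2-DMb1, Ciita, C3 and the C1q chains, and genes given by counts) were chosen after their values were seen. A gene that the rule names is not reported here. Word sharing is the share of a gene's 50-base words found in transcripts of other genes.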

Additional observations from a re-analysis of the deposited data

Results flagged for a closer look

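Of 288 sets of 5 library values looked at (named genes, list scores and library measures in each group), 21 (7.29%) held a value set apart from the other 4 by Dixon's criterion. Its rate of about 1 in 20 sets by chance holds for independent, normally distributed values. The sets here share the same libraries, so that rate cannot be set against the 7.29%. In the tumour-bearing group these were the highest values of Icam1 (19.6 CPM, next 3.4), Cd14 (4.27, next 2.4) and Msmo1 (101.5 CPM, next 68), all in library 1, and of Cd4 (8.17 CPM, next 0.908), Ppp1r1b, a striatal signalling protein (307 CPM, next 106) and Ifit3b (3.6 CPM, next 2.61) in library 3. Library 3 also held the lowest Gfap (190 CPM, next 306) and Pdia6 (112.4 CPM, next 141). Cd63 was highest in library 4 (130 CPM, next 84.2). Scores set apart there were those of homeostatic astrocytes (7.93) and the circadian clock (6.53), both highest in library 3, and of ribosomal proteins (7.56), highest in library 1.

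In the tumour-free ICI group, library 5 held the highest values of Trbc2 (0.667 CPM), Cd79a (0.4 CPM), Ctsl (72.4 CPM), Cdkn1a (7.51 CPM), the cytokine and inflammasome score (3.14) and the mitochondrial share of counts (3.50%). Library 3 held the highest Chrna5 (5.48 CPM) and the lowest number of genes detected (24674, next 25540). The reactive microglia score was highest in library 4 (4.62).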

How the results depend on the processing

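Of 99 genes tried under up to 21 alternatives, 92 kept the direction of the tumour difference in each and 7 reversed it in at least 1. Many of the 99 were picked by their p in this comparison and the alternatives reuse its libraries, so a kept direction was favoured in advance. Of 42 list medians, 21 kept their sign in every alternative. The number of genes called between melanoma plus ICI and ICI was 0 in the edgeR fit, 9 with DESeq2 (the 8 leading genes Lyz2, Lsr, Tspan11, Mospd1, Vcam1, Pdia6, Aspg and Nova2, and Klk13, picked by this count) and 1 with a surrogate variable (Lsr). It was 0 with any single library of these groups left out. The count at an unadjusted p below 0.05, 1590 with all libraries, was 687 with the dentate gyrus and meninges scores as covariates and ranged from 901 without ICI replicate 3 to 2271 without ICI replicate 5. The interaction called 0 genes in the edgeR fit, 47 with DESeq2, 19 with voom, 39 with a surrogate variable and 17 without melanoma plus ICI replicates 1 and 3. It called 0 to 11 with single ICI or melanoma plus ICI libraries left out (11 without melanoma plus ICI replicate 3, 2 without ICI replicate 4). Its dependence on single control and melanoma libraries was not tested. The cause of these differences was not tested. Reversed with the 4 tissue scores were Aldh1l1 (-0.0017), H2-DMa (0.20), Mfsd2a (-0.018) and Serpina3n (0.27). Reversed with the dentate gyrus and meninges scores were Cd109 (0.33), Gfap (0.024), H2-DMa (0.077), Neurod2 (0.042) and Serpina3n (0.31). With single libraries left out, H2-DMa ranged from -0.12 to 0.059 (0.0097 without ICI replicate 3, 0.059 without melanoma plus ICI replicate 4) and Mfsd2a from -0.087, without melanoma plus ICI replicate 3, to 0.14. Mfsd2a was -0.11 with voom and -0.14 without melanoma plus ICI replicates 1 and 3. With the replicate number as a block, 0 genes were called and 1471 had an unadjusted p below 0.05, or 1409 in the fit of the 10 libraries. Same-numbered libraries did not deviate together (correlations of 0.180, 0.024, -0.172, 0.395 and -0.093), and 1 of 5 correlated best with its own number, so the numbers were not taken as pairs. Depth limits Cd3e, Cd8a, Pdcd1 and Ctla4, whose differences were not detectable at these counts.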
